A study of Mus musculus with 2 samples.

Results

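The genes described here are those of the cytosolic ribosomal proteins of the mouse and of their paralogs, 84 of the 44002 rows of the deposited table. A row was taken when its Entrez gene ID maps to a protein-coding symbol made of Rpl or Rps, a number and at most a short ending (a, l, al, x or l1), and Rplp0, Rplp1, Rplp2 and Rpsa were added. By this rule there were 46 genes of the large subunit, 30 of the small subunit and 8 paralog genes, and 82 of the 84 reached 1 CPM (reads scaled by the library total) in at least 1 library, as did 19389 genes of the whole table. The members lie on 19 chromosomes, with 14 on chromosome 7, 8 on chromosome 17 and 4 on the X chromosome. Symbols, positions and gene IDs are those of RefSeq on GRCm38, which mm10 also denotes.

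The study measured polyadenylated RNA of whole testis from BALB/c mice at postnatal day 45 by sequencing, after exposure to bisphenol A (BPA), a monomer of polycarbonate plastics that can bind estrogen receptors, and without it. The group exposed to BPA and the control group gave 1 library each, made from 3 samples mixed before sequencing. The BPA library carries a treatment label; the other library, whose labels and title name no treatment, was taken as the control. How much BPA was given, by which route and for how long is not stated here. With 1 library per group the spread between animals is unknown, and no test between the conditions was made. Every interval given is an exact 95% binomial (Clopper-Pearson) interval of reads, which covers counting error only. It treats reads as independent, which PCR copies are not, so it can be too narrow.

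Each ribosome carries nearly all of its proteins in single copy, and the mRNAs of these proteins are among the most evenly expressed in a cell. Most begin with a 5′ terminal oligopyrimidine (TOP) tract, a C followed by further pyrimidines, through which mTOR and Larp1 set their translation together. In the male germ line the X chromosome is silenced during meiosis, and several X-linked ribosomal protein genes have autosomal retrocopies that are expressed there, among them Rpl10l and Rpl39l. Genes of this family also left many processed pseudogenes in the genome, whose sequence lies close to that of the parent mRNA.

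The promoter windows below are shown because a shared start is what this gene family is known for, and because they set the 2 best-known testis paralogs beside their parents. RefSeq promoter sequences of GRCm38.p6 were matched for 64 of the 84 members, and each printed window runs from 45 bases before the annotated start to 15 bases from it, on the gene's own strand. Capitals mark the pyrimidine word CTCTTTC, searched on the gene's strand within 15 bases either side of the start.
Rpl28 (chr7:4792920-4792979, plus strand): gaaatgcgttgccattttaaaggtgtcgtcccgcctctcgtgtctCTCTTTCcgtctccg
Rpl35 (chr2:39005117-39005176, minus strand): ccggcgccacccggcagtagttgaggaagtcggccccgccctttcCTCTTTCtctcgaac
Rpl35a (chr16:33056437-33056496, plus strand): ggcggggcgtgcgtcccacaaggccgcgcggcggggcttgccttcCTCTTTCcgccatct
Rpl18 (chr7:45718026-45718085, plus strand): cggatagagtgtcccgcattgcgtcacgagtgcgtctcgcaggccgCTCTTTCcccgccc
Rps26 (chr10:128626492-128626551, minus strand): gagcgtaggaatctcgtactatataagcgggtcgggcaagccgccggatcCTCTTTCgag
Rps15a (chr7:118116133-118116192, minus strand): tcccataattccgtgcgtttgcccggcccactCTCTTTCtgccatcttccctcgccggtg
Rpl10l (chr12:66284387-66284446, minus strand): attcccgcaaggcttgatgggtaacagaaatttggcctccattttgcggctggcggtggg
Rpl10 (chrX:74270771-74270830, plus strand): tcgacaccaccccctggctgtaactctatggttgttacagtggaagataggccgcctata
Rpl39l (chr16:10170183-10170242, plus strand): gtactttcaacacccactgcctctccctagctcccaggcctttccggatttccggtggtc
Rpl39 (chrX:37085208-37085267, minus strand): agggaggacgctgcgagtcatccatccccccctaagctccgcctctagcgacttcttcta

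CTCTTTC stood near the start in 6 of 64 members, or 9.38%, against 132 of 27025 genes with a window, or 0.488%, and 77 of 13865 such genes at 1 CPM or more, or 0.555%. The 6 members were those whose windows carry capitals above, and in Rpl28, Rpl35 and Rpl35a the word began at the first transcribed base. Some members have several annotated starts, and the window printed for Rpl35a is 1 of 3. Over the whole promoter sequence of each gene, 250 bases before the start and 50 after it, the word was found on the gene's strand in 20.3% of the members and 4.60% of all genes. Words bound by other factors were counted on both strands in the same sequences, and partial overlaps with the pyrimidine word were not removed. Among them CCGGAAG, the core bound by ETS factors, was present in 39.1% of the members, against 9.93% of all genes and 16.2% of genes at 1 CPM or more. TGACGTCA, the cAMP response element, was present in 7.81% of the members, against 2.03% of all genes and 3.17% of genes at 1 CPM or more. TATAAA, a core promoter word, was present in 12.5% of the members, against 15.7% of all genes and 10.2% of genes at 1 CPM or more. These matches describe letters and show neither binding nor the true start in testis, and Rpl10, Rpl10l, Rpl39 and Rpl39l do not hold CTCTTTC in the windows printed.

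The steps in the deposited values gave 0.0220 CPM for 1 read in BPA and 0.0239 CPM in control, or full scales of 45377693 reads for BPA and 41801885 for control. Of these, 45162887 reads in BPA and 41711330 in control stand in rows with a listed value. The tissue label was checked against germ cell markers, with 8 of 8 spermatocyte markers and 7 of 7 elongating spermatid markers at 1 CPM or more, the second list summing to 22091 CPM in BPA and 21064 CPM in control. All 8 Sertoli cell markers had log2 ratios above 0, with a sum of 1006 CPM in BPA and 870 CPM in control. Of 8 adipocyte markers 6 were at least 2-fold lower in the BPA library, and their sum was 26.95 CPM in BPA and 85.2 CPM in control. None of 6 epididymis markers reached 1 CPM. The part of these cell types in the ribosomal protein values was not tested, and in whole tissue fewer cells of a type and less RNA per cell cannot be told apart.

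As a family the ribosomal protein genes stood at nearly the same level in both libraries. The 84 members summed to 14298 CPM in the BPA library, 648789 reads or 1.43% of the library, and to 13958 CPM in the control library, 583464 reads or 1.40%. The ratio of these sums, BPA over control, was 1.024 (1.021 to 1.028). Genes of the large subunit summed to 8405 CPM in BPA and 8176 CPM in control, those of the small subunit to 5163 CPM in BPA and 5043 CPM in control, and the paralogs to 729 CPM in BPA and 738 CPM in control. The 3 stalk proteins Rplp0, Rplp1 and Rplp2, which call elongation factors to the ribosome, summed to 1045 CPM in BPA and 1042 CPM in control.

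Gene by gene, the measure was log2 of BPA over control after 0.1 CPM was added to both values, and a ratio of 2-fold or more was counted as a call. The median log2 ratio of the 82 members at 1 CPM or more was 0.05, beside 0.004 over all 19389 genes, and it was 0.05 for the large subunit, 0.05 for the small subunit and 0.02 for the paralogs. Of the 82, 53 lay within 0.1 of a log2 ratio of 0 and 69 within 0.2. In 55 members, or 67.1%, the ratio was above 0, against 50.9% of all genes. Among genes averaging at least 100 CPM it was above 0 in 44 of 61 members, or 72.1%, against 44.6% of all 2401 genes. Within that range the 61 members had a median log2 ratio of 0.06 and a spread of 0.08 (robust SD across genes), and the 2401 genes a median of -0.01 and a spread of 0.08. With 1 library a group no test of this difference was possible.

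**Figure D1:**
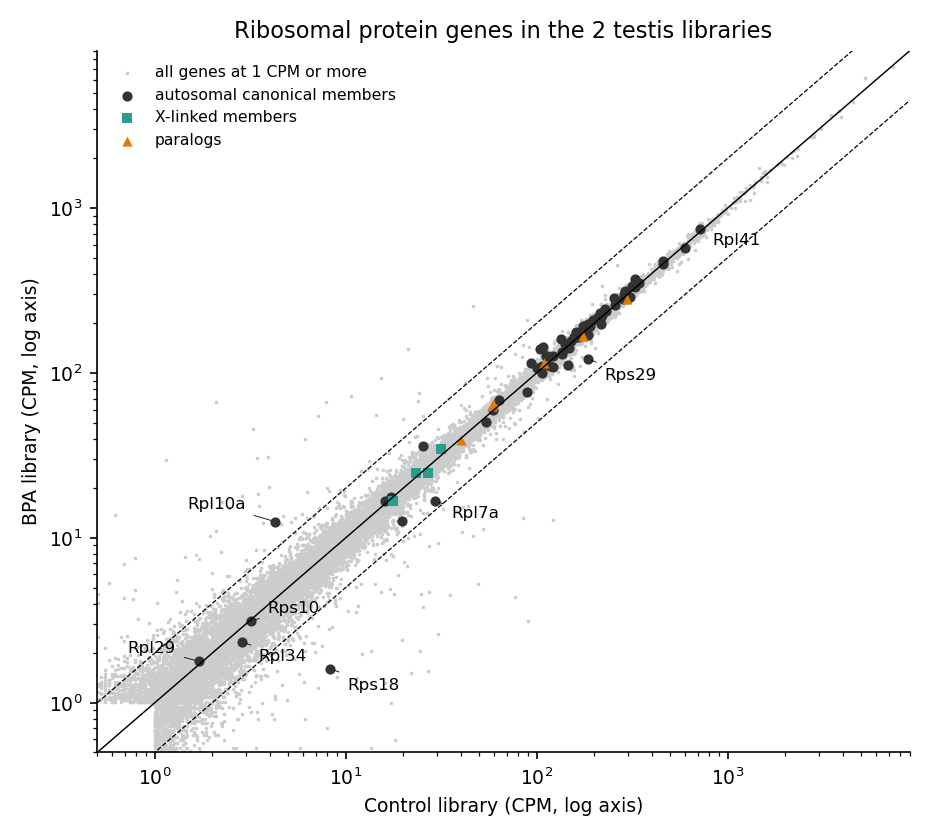
CPM in the BPA library (vertical, log axis) against CPM in the control library (horizontal, log axis), with 1 point per gene at 1 CPM or more; the solid line marks equal values and the broken lines 2-fold. Most ribosomal protein genes lie on the line of equal values, Rpl10a above the upper broken line at 12.6 CPM in BPA and 4.26 CPM in control, and Rps18 below the lower one at 1.61 CPM in BPA and 8.32 CPM in control.

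Across members the levels were alike in the 2 libraries over a wide range, with a Pearson correlation of the log2 levels of 0.98 and a Spearman correlation of 0.99 over the 82 genes, which share both libraries and are not independent replicates. The most reads were taken by Rpl41, which encodes the smallest ribosomal protein, at 751 CPM in BPA and 715 CPM in control. Rplp0, the base of the stalk, followed at 574 CPM in BPA and 600 CPM in control. Rps14, a protein of the small subunit's platform, had 476 CPM in BPA and 457 CPM in control, and Rpl13 of the large subunit had 457 CPM in BPA and 460 CPM in control. The same 4 genes led in both libraries, though Rps14 stood ahead of Rpl13 in BPA and behind it in control.

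The next 6 by reads in the BPA library lay between 315 and 370 CPM there. Rps7 had 370 CPM in BPA and 328 CPM in control, Rps24 had 354 CPM in BPA and 346 CPM in control, and Rps20 had 335 CPM in BPA and 315 CPM in control, all 3 of the small subunit. In the large subunit Rpl36 had 352 CPM in BPA and 326 CPM in control, Rpl8, which lies at the peptidyl transferase centre, 334 CPM in BPA and 329 CPM in control, and Rplp1 315 CPM in BPA and 291 CPM in control. Of these 10 genes Rps7 was the farthest apart between the libraries, with a log2 ratio of 0.17.

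Levels of different genes were compared per kilobase of exon, taking the union of a gene's annotated exons as its length. On that scale Rpl36 led, at 920 CPM per kilobase in BPA and 852 in control. Rpl41 stood at 643 CPM per kilobase in BPA and 612 in control, Rplp1 at 631 in BPA and 583 in control, and Rplp0 at 346 in BPA and 362 in control. The testis paralog Rpl39l came next, at 336 CPM per kilobase in BPA and 356 in control. Rps27, a zinc-finger protein of the small subunit, stood at 277 CPM per kilobase in BPA and 295 in control, and Rps15, Rpl8 and Rpl24 lay between 219 and 259 in BPA and between 208 and 248 in control. The order depends on the length taken. With the principal transcript of each gene, Rpl41 led at 1291 CPM per kilobase in BPA and 1228 in control.

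The 4 X-linked genes were low for this family on the per-length scale in both libraries. Rpl10, whose protein joins the large subunit last and lies near its catalytic centre, had 34.5 CPM in BPA and 31.6 CPM in control, or 16.8 CPM per kilobase in BPA and 15.4 in control. Rpl39, a small protein of the tunnel through which the new chain leaves, had 24.9 CPM in BPA and 27.01 CPM in control, or 17.4 CPM per kilobase in BPA and 18.8 in control. Rps4x of the small subunit had 24.7 CPM in BPA and 23.3 CPM in control, and Rpl36a of the large subunit had 16.8 CPM in BPA and 17.6 CPM in control. Together they summed to 100.9 CPM in BPA and 99.6 CPM in control, a ratio of 1.01 (0.971 to 1.06).

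Per kilobase the 4 X-linked genes lay between 10.1 and 17.4 CPM in the BPA library and between 10.6 and 18.8 CPM in the control library. The 72 autosomal genes other than paralogs had a median of 77.7 CPM per kilobase in BPA and 76.3 in control. In each library 10 of these 72 lay at or under the highest X-linked gene. The 10 were the same in both libraries, namely Rps18, Rpl34, Rps10, Rpl29, Rpl21, Rpl10a, Rpl7a, Rps2, Rpl35a and Rpl17. With the length of the principal transcript 11 autosomal genes did so in each library. Of the 50-base words of the principal Rpl10 transcript 85.4% are also found in a transcript of another locus. The share was 85.5% for Rpl36a, 72.2% for Rps4x and 16.5% for Rpl39. The part of such shared sequence in the levels of the X-linked genes was not tested.

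Among the paralogs, Rpl10l and Rpl39l exceeded their X-linked parents severalfold in both libraries, and Rpl36al did so too. Rpl10l, an intronless copy of Rpl10 on chromosome 12 known to be needed for male meiosis, had 168 CPM in BPA and 175 CPM in control. Per kilobase of exon it stood at 9.78 times Rpl10 in the BPA library (9.27 to 10.3) and at 11.1 times Rpl10 in the control library (10.5 to 11.8). Rpl39l, the copy of Rpl39 on chromosome 16 that is known for its part in sperm formation, had 279 CPM in BPA and 296 CPM in control. Its level per kilobase was 19.4 times that of Rpl39 in BPA (18.2 to 20.6) and 18.9 times in control (17.8 to 20.1). Rpl36al, the chromosome 12 copy of Rpl36a, had 115 CPM in BPA and 109 CPM in control, and per kilobase 8.36 times Rpl36a in BPA (7.74 to 9.03) and 7.55 times in control (6.99 to 8.18).

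The size of these ratios, but not their direction, rests on the length taken for the parent. With the principal transcript Rpl10l stood at 4.07 times Rpl10 in BPA and 4.63 times in control. On the same scale Rpl39l stood at 8.54 times Rpl39 in BPA and 8.33 times in control, and Rpl36al at 2.59 times Rpl36a in BPA and 2.34 times in control. The 3 pairs differ in shared sequence, since 7.6% of the words of Rpl10l, none of those of Rpl39l and 18.1% of those of Rpl36al (principal transcripts) occur in transcripts of another locus. For the parents the shares were 85.4% for Rpl10, 16.5% for Rpl39 and 85.5% for Rpl36a. The part of this shared sequence in the ratios was not tested.

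Of the paralogs with autosomal parents, Rpl7l1 and Rps27l stood under theirs in both libraries. Rpl7l1, a factor of large subunit assembly related to Rpl7, had 39.2 CPM in BPA and 40.4 CPM in control, beside 177 CPM in BPA and 172 CPM in control for Rpl7. Per kilobase it stood at 0.170 times its parent in BPA and 0.180 times in control. Rps27l, known as a p53 target, had 62.7 CPM in BPA and 58.6 CPM in control, beside 289 CPM in BPA and 308 CPM in control for Rps27, and per kilobase 0.277 times its parent in BPA and 0.243 times in control. Rpl22l1 and Rpl22 took similar numbers of reads, at 65.1 and 68.9 CPM in the BPA library and 59.3 and 63.8 CPM in the control library. Their ratio per kilobase was 1.38 in BPA and 1.36 in control with the union of exons, 1.02 in BPA and 0.998 in control with the longest transcript, and 3.51 in BPA and 3.45 in control with the principal transcript. The size of this ratio, and in the control library its direction, therefore changed with the length taken.

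The 2 members under 1 CPM were also paralogs. Rpl3l, known as the striated muscle form of Rpl3, and Rpl32l were listed at 0 in both libraries, while Rpl3 had 140 CPM in BPA and 105 CPM in control. Values under 1 CPM were written as 0 in the table, so a listed 0 does not show that a gene was silent. The authors' deposited table still gives log2 fold changes of 0.24 for Rpl3l and -0.12 for Rpl32l. Rps4l was not analysed here.

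The balance between paralog and parent differed between the libraries by less than 0.2 on the log2 scale in all 6 pairs with values. On the log2 scale the paralog-to-parent ratio in BPA minus that in control was -0.18 for Rpl10l, 0.04 for Rpl39l, 0.15 for Rpl36al, 0.03 for Rpl22l1, -0.08 for Rpl7l1 and 0.19 for Rps27l. The counting errors of these differences lay between 0.04 and 0.08 (SE). The largest, for Rps27l (SE 0.04) and Rpl10l (SE 0.06), lay beyond this counting error, which treats reads as independent. They went in opposite directions. No spread between animals stands behind these values.

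**Figure D2:**
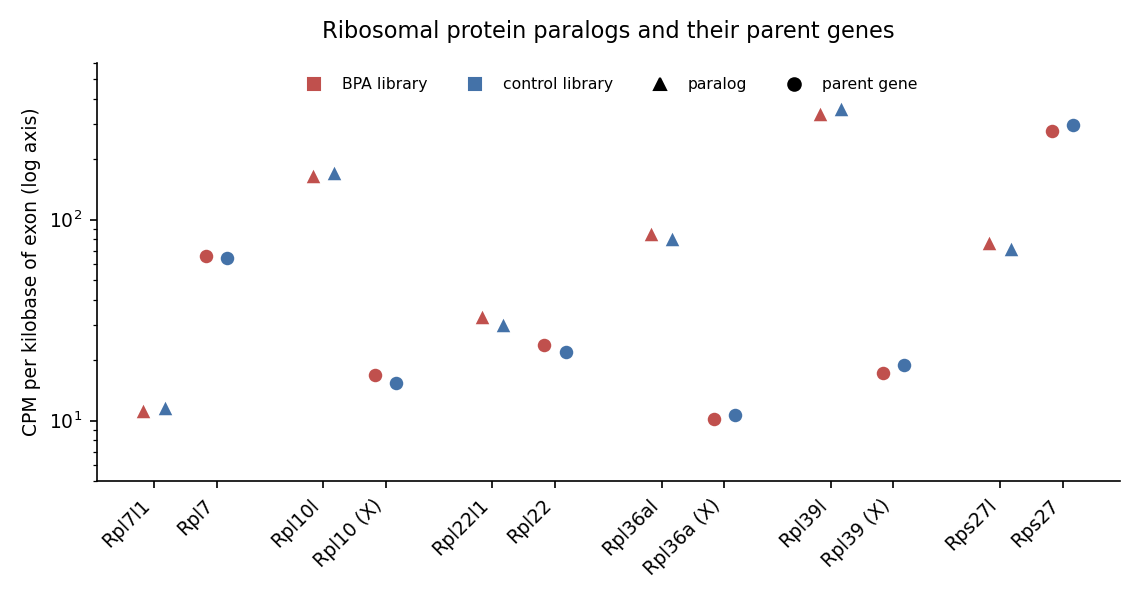
CPM per kilobase of exon (union of annotated exons, log axis) of 6 paralogs (triangles) and their parent genes (circles) in the BPA library (red) and the control library (blue); X marks parents on the X chromosome. Rpl10l, Rpl36al and Rpl39l lie well above their X-linked parents in both libraries, and Rpl7l1 and Rps27l lie under theirs.

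Between the libraries 2 of the 82 members were 2-fold or more apart, 1 in each direction, against 3.28% of all genes at 1 CPM or more (1.32% higher in BPA and 1.95% lower). The share among the members was close to this background. Rpl10a, whose protein forms the stalk over which the spent tRNA leaves the ribosome, is gene ID 19896 on chromosome 17 (28328471 to 28331033, plus strand). It had 12.6 CPM in the BPA library, 570 reads, and 4.26 CPM in the control library, 178 reads. Its CPM was 2.95-fold higher in BPA (2.49 to 3.51), with a log2 ratio of 1.54. Rps18, a protein of the small subunit's head at the contact between the subunits, is gene ID 20084 on the same chromosome (33951998 to 33955665, minus strand). It had 1.61 CPM in the BPA library, 73 reads, and 8.32 CPM in the control library, 348 reads. Its CPM was 5.17-fold lower in BPA (4.01 to 6.76), with a log2 ratio of -2.30. Both also passed when the nearer bound of the interval had to reach 2-fold, as 1.35% of all genes did.

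At 1.5-fold 5 members differed, against 9.64% of all genes at 1 CPM or more. Besides Rpl10a and Rps18 these were Rpl7a, Rpl21 and Rps29, all lower in BPA. Rpl7a of the large subunit had 16.7 CPM in BPA and 29.4 CPM in control, a log2 ratio of -0.81, and Rpl21, also of the large subunit, had 12.7 CPM in BPA and 19.7 CPM in control, a log2 ratio of -0.62. Rps29, a zinc-binding protein of the small subunit's head (gene ID 20090, chromosome 12, 69157722 to 69159186, minus strand), had 122 CPM in BPA, 5530 reads, and 185 CPM in control, 7745 reads. Its CPM was 1.52-fold lower in BPA (1.47 to 1.57), a log2 ratio of -0.60.

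Abundance sets these 5 apart from each other. Among the 61 members averaging at least 100 CPM Rps29 alone differed by 1.5-fold, and among all 2401 genes of that range 12 did so, or 0.5%, and 0.0833% differed by 2-fold. Of the 2400 genes whose mean lay within 2-fold of that of Rps29, 14 had a log2 ratio at least as far from 0. For Rps18 this held for 33 of 5188 genes, for Rpl10a for 48 of 5204, for Rpl7a for 65 of 4984 and for Rpl21 for 142 of 5133. Of the members with a mean under 20 CPM, 3 of the 9 at 1 CPM or more were 1.5-fold apart, against 12% of the 11317 genes averaging 1 to 20 CPM.

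Next in size on the higher side were Rpl35a, Rpl3, Rpl26 and Rps28, which stayed under 1.5-fold. Rpl35a, a large subunit protein altered in some human cases of Diamond-Blackfan anaemia, had 36.1 CPM in BPA and 25.5 CPM in control, a log2 ratio of 0.50. Rpl3, which reaches the peptidyl transferase centre, had a log2 ratio of 0.42 with the values given above. Rpl26, known to bind p53 mRNA in human cells, had 144 CPM in BPA and 109 CPM in control, a log2 ratio of 0.41. Rps28 of the small subunit had 115 CPM in BPA and 93.9 CPM in control, a log2 ratio of 0.29. On the lower side Rps26, which lies at the exit of the mRNA channel, had 112 CPM in BPA and 145 CPM in control, a log2 ratio of -0.38. The other 72 members at 1 CPM or more had log2 ratios between -0.29 and 0.26, with Rpl34 and Rpsa at the ends.

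The authors called 28 of 29279 rows with a p-value, or 0.0956%, and none of them was a member. Of the 84 members 6 had in the authors' deposited table a p-value under 0.05, against 0.615% of all rows with a p-value, namely Rps29, Rpl3, Rpl26, Rps18, Rpl10a and Rps26. The rows behind that share include genes under 1 CPM, while 61 members average at least 100 CPM. No share among genes of like abundance was taken, so the 2 shares are not alike. For Rps29 the authors' deposited table gives a p-value of 0.000307 and a q-value of 0.155. For every other member the authors' deposited table gives a q-value of 0.99996. Which program gave these p-values is not stated, and 1 library per group holds no measure of the spread between animals.

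**Figure D3:**
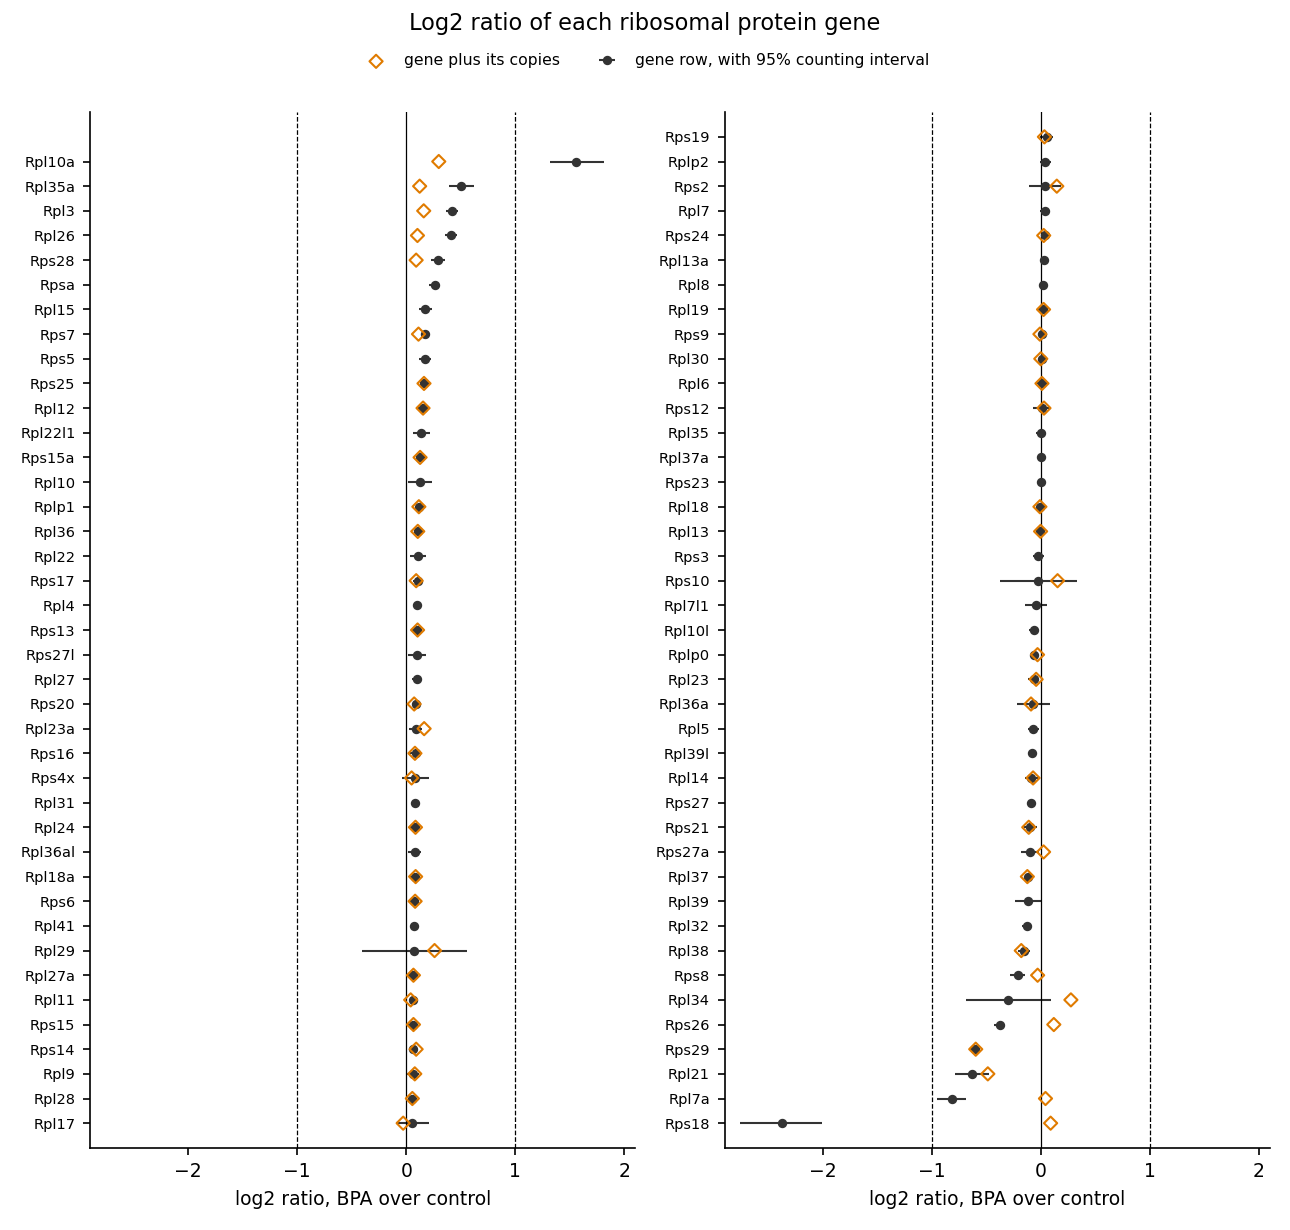
Log2 ratio of CPM, BPA over control, of 81 of the 82 members at 1 CPM or more, without a pseudocount (black points, bars are 95% counting intervals), and of each gene summed with the rows of its pseudogene copies where it has any (open diamonds); broken lines mark 2-fold. Rpl10a and Rps18 lie past 2-fold by their own rows, no sum does, and Rps29 is the single gene that is 1.5-fold apart by both.

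Many members share their sequence with pseudogenes that have rows of their own, and the levels of several genes change when these rows are read together. A copy was taken as a row named after the gene with -ps, or a pseudogene sharing at least 50 of the gene's 50-base words, at 1 CPM or more in either library. This definition was chosen after the values were seen. Of the 82 members 55 had at least 1 such copy, 106 copies in all, which summed to 2150 CPM in BPA and 2020 CPM in control. Of these copies 6 were 2-fold higher and 2 were 2-fold lower in BPA, beside 3.28% of all genes either way. In 9 families the copies held over 50% of the reads of gene and copies in both libraries. These were Rps18, Rpl34, Rpl29, Rps2, Rps10, Rpl17, Rpl7a, Rpl10a and Rpl35a, which are 9 of the 10 autosomal genes named above for lying at or under the highest X-linked gene. This overlap is partly built in, because a low gene row itself raises the share held by its copies.

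**Figure D4:**
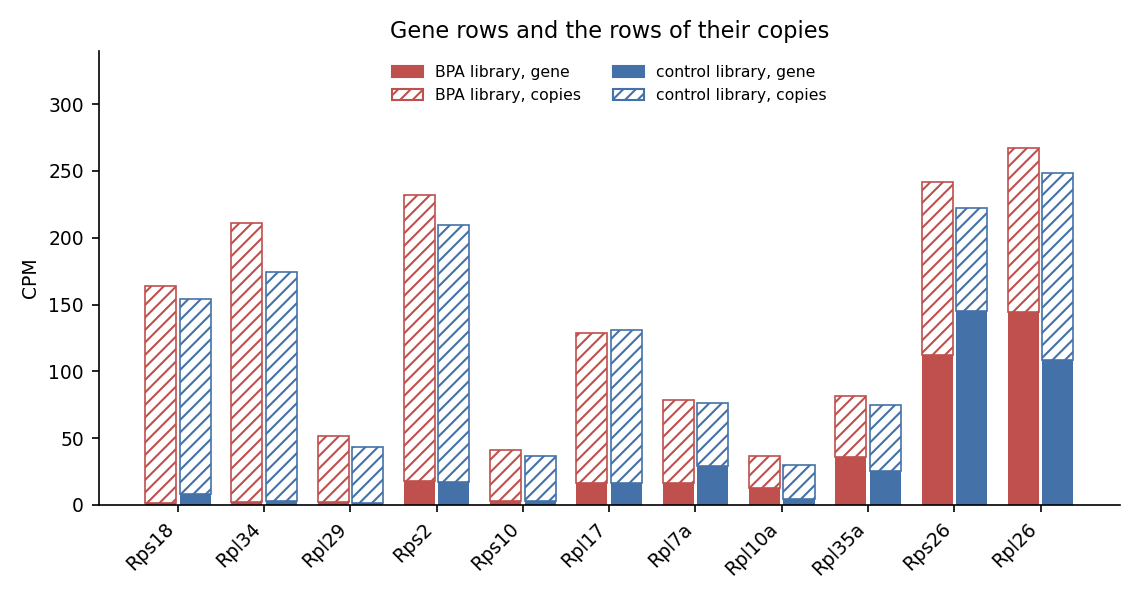
CPM of the gene row (filled) and of its pseudogene copies (hatched, stacked on top) in the BPA library (red) and the control library (blue), for the 11 genes whose copies hold over 50% of the sum in at least 1 library. The gene rows of Rps18, Rpl34, Rpl29 and Rps10 are near 0 on this scale. Between the 2 libraries the stacked sums differ most for Rpl10a, whose sum in BPA is 1.23 times that in control.

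Rps18 shows the largest difference between the 2 readings. Rps18-ps6 had 89.1 CPM in BPA and 82.8 CPM in control, Rps18-ps5 had 44.4 CPM in BPA and 49.9 CPM in control, and Rps18-ps3 had 29.1 CPM in BPA and 13.2 CPM in control. The copies thus held 99.02% of the family's reads in BPA and 94.6% in control. Gene and copies together had 164 CPM in BPA and 154 CPM in control, a ratio of 1.06 (1.03 to 1.10), so that the sum was slightly higher in BPA where the gene row was lower. For Rpl10a, with Rpl10a-ps1 at 24.3 CPM in BPA and 25.7 CPM in control, the sum was 36.9 CPM in BPA and 29.97 CPM in control, a ratio of 1.23 (1.14 to 1.32).

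In some other families, picked after their values were seen, gene and copies moved in opposite directions. Elsewhere they moved the same way, as in Rps29 (both lower in BPA), and the opposite moves were not counted over all families. For Rpl29 both were higher in BPA, but the interval of the gene row, 0.755 to 1.47, includes equal levels. Rps26-ps1 had 130 CPM in BPA and 77.1 CPM in control, and with it the Rps26 family had a ratio of 1.09 (1.06 to 1.12). Gm15772, a pseudogene sharing words with Rpl26, had 123 CPM in BPA and 140 CPM in control, and the family ratio was 1.07 (1.05 to 1.10). Rpl3-ps1 had 26.4 CPM in BPA and 44.2 CPM in control, giving a family ratio of 1.12 (1.08 to 1.16). Rpl7a and its 9 copies had a ratio of 1.03 (0.982 to 1.08), with Gm16477 at 32.8 CPM in BPA and 16.96 CPM in control. The main row of the Rpl34 family was Rpl34-ps1, at 209 CPM in BPA and 171 CPM in control, beside 2.34 CPM in BPA and 2.87 CPM in control for Rpl34 itself. The interval of the ratio of Rpl34, 0.621 to 1.07, includes equal levels.

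Summed in this way, none of the 82 families was 2-fold apart and 1 was 1.5-fold apart. That was Rps29, which with its copy Gm14303 had 130 CPM in BPA and 196 CPM in control, a log2 ratio of -0.60. Of single genes at 1 CPM or more 3.28% were 2-fold apart and 9.64% were 1.5-fold apart. Among genes averaging at least 100 CPM the shares were 0.0833% and 0.5%, and sums with copies were not made for other genes. Rpl21 with its 3 copies kept a log2 ratio of -0.49. The family log2 ratios had a median of 0.06 and a range of -0.60 to 0.30, 58 of 82 were above 0, and 76 lay within 0.2 of 0. Where copies hold most of the reads, as for Rps18 and Rpl10a, the sum mostly follows the ratio of the copies. Whether reads of a gene were placed on its copies was not tested, since how reads with several places were treated is not stated.

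Annotation overlaps were common too. Of the 84 members 39 have exons overlapping those of another gene and 64 share at least 10% of their words with another locus, while 15 have neither. Exons of Rps18 overlap those of Vps52, and exons of Rps10 those of the read-through gene RPS10-NUDT3. No strand-marking step is described in the labels' protocols, so reads of overlapping genes cannot be told apart. Of the 14 members with neither that reached 1 CPM, none was 2-fold apart, against 2.52% of the 9870 annotated genes with neither, a share at which 14 genes would hold fewer than 1, and their median log2 ratio was 0.03. Members were also sorted by the share of principal transcript words found elsewhere. Of the 9 members averaging under 20 CPM, 8 had 30% or more of their words elsewhere, with a median of 66.8%, against 51 of the other 73 members, with a median of 40.2%. Of the 5 members 1.5-fold apart, 3 had 60% or more. The median per kilobase of principal transcript was 160 CPM in BPA and 149 CPM in control for 23 members under 30%, 160 CPM in BPA and 154 CPM in control for 34 members from 30 to 60%, and 173 CPM in BPA and 166 CPM in control for 25 members at 60% or more.

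Rpl10a and Rps18 also lie in stretches of chromosome 17 where other genes differed. Within 1 Mb of Rpl10a 8 of 32 genes at 1 CPM or more were 2-fold apart, or 25%, with 3 higher and 5 lower in BPA. Within 1 Mb of Rps18 8 of 49 were apart, or 16.3%, again with 3 higher and 5 lower. Rps10, which lies near Rpl10a, had 8 of 33 such genes around it, and Rps28, near Rps18, had 8 of 48, and these windows overlap. Of all 82 members 48 had no such gene within 1 Mb, 29 had 1 to 3 and 5 had 4 or more. None of the genes within 1 Mb of Rps29 was 2-fold apart.

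Around Rpl10a, genes 2-fold higher and genes 2-fold lower lay on both sides. Around Rps18, the 3 higher genes lay on one side of it, with 2 of the lower ones, and the other 3 lower genes on the opposite side. Around Rpl10a, Armc12 had 3.15 CPM in BPA and 90.7 CPM in control, and Nudt3 had 39.8 CPM in BPA and 6.10 CPM in control. Around Rps18, Brd2 had 67.0 CPM in BPA and 7.85 CPM in control, and Wdr46 had 5.93 CPM in BPA and 18.9 CPM in control. What these stretches share was not tested.

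**Figure D5:**
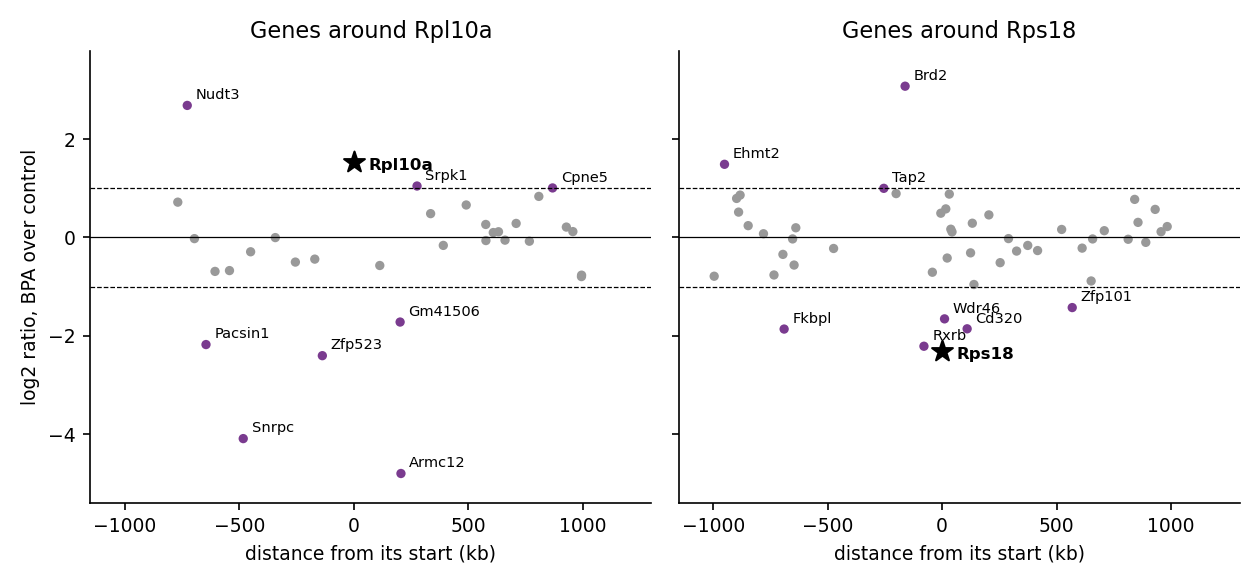
Log2 ratio, BPA over control with 0.1 CPM added, of genes at 1 CPM or more within 1 Mb of Rpl10a (left) and Rps18 (right), against the distance from the start of that gene in kilobases; stars mark the 2 members, purple points genes 2-fold or more apart, and broken lines 2-fold. Genes 2-fold higher and 2-fold lower in BPA stand on both sides of Rpl10a, and the 3 higher genes near Rps18 all stand to its left. Distances run along each gene's own strand, so for Rps18, on the minus strand, left means higher coordinates.

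Some ribosomal proteins have symbols that fall outside the rule. Fau, a ubiquitin-like fusion of a small subunit protein, had 298 CPM in BPA and 309 CPM in control. Rps3a1 had 152 CPM in BPA and 151 CPM in control, and Rack1, a scaffold on the small subunit, 49.2 CPM in BPA and 50.9 CPM in control. The log2 ratios of Fau, Rps3a1 and Rack1 lay between -0.05 and 0.01.

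The pathways that build and use ribosomes were counted by the same size rule, beside the 3.28% of all genes that were 2-fold apart. Of 107 ribosome biogenesis genes none was higher and 1 was lower in BPA, and the median log2 ratio was 0.02. The lower gene was Pelp1, part of a complex for maturation of the large subunit, at 1.98 CPM in BPA and 12.1 CPM in control. Of 48 translation initiation factors none was 2-fold apart and the median was 0.02. The farthest were Mcts1, at 1.94 CPM in BPA and 1.27 CPM in control, and Eif3j2, at 14.3 CPM in BPA and 21.1 CPM in control.

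Of 21 elongation and release factors none was higher and 1 was lower, with a median of -0.01. This was Eif5a, the hypusine-bearing factor that helps the ribosome past difficult peptide bonds, at 8.90 CPM in BPA and 27.3 CPM in control. Of 23 genes of the mTOR pathway and TOP mRNA control none was 2-fold apart, with a median of -0.03. The farthest were Rps6kb2, a kinase of ribosomal protein S6, at 1.34 CPM in BPA and 2.61 CPM in control, and Tbc1d7, a subunit of the TSC complex, at 10.1 CPM in BPA and 12.4 CPM in control. Of 24 genes of ribosome quality control and hibernation none was 2-fold apart, with a median of 0.03. Vcp, an ATPase that extracts stalled chains, had 180 CPM in BPA and 136 CPM in control, and Pelo, which rescues stalled ribosomes, 14.5 CPM in BPA and 17.6 CPM in control.

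The mitochondrial ribosome, a separate machine with its own protein set, had 78 genes at 1 CPM or more, of which 1 was higher and 2 were lower in BPA, with a median of 0.06. Mrps23 had 15.2 CPM in BPA and 7.27 CPM in control. Mrps18b had 1.32 CPM in BPA and 16.1 CPM in control, and Mrpl40 had 0.529 CPM in BPA and 5.77 CPM in control. With 3 of 78 genes 2-fold apart, or 3.85%, this list was near the background, as the cytosolic list was.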

How the data were processed

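Libraries were made from Trizol RNA by oligo(dT) selection and random priming, per the labels' protocols. Per the submitters' processing notes, HISAT2 2.0.4, HTSeq 0.6.1 and build mm10 were used; annotation and scaling are not stated. Column headers say read counts, yet the authors deposited CPM, with 1 value per library. They are whole multiples of 1 step per library, taken as 1 read. Deposited values under 1 CPM are written as 0; where the other library had 1 CPM or more, the deposited log2 fold change gave the value back (812 in the BPA library, 592 in the control library). The authors also deposited p-values and q-values, which were copied. The design had assumed values without that listing limit, and the filled values were used throughout.

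No count model was fitted. The size rule compared log2(CPM + 0.1) among genes reaching 1 CPM in either library. Of 41571 numeric gene IDs 40269 matched RefSeq; 2431 rows are unnamed transcripts. Exon lengths, overlaps and 50-base words came from GENCODE M21. A further 3 rows whose symbols match the rule are pseudogenes and were left out. Members and lists were chosen with earlier results of these data known. Named are members 2-fold apart, paralogs with parents, the 10 most abundant by reads and per kilobase, the 5 highest and 5 lowest ratios, members under 1 CPM and, per list, genes 2-fold apart or else the 2 farthest; of these, 2 genes are not reported here; other genes, such as copies and neighbours, were chosen after their values were seen. Alternatives covered scaling, pseudocount, floor, fold size, length, shared sequence, listed zeros and copies. Python 3.11.15, numpy 2.4.6, pandas 2.3.3, scipy 1.17.1 and matplotlib 3.10.9 were used, and the size rule was tested on simulated counts.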

Additional observations from a re-analysis of the deposited data

How the results depend on the processing

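Among the members the counts of 1 higher and 1 lower gene held under 3 other scalings, a pseudocount of 1 CPM, the deposited log2 fold change, a floor of 4 CPM, no floor, the nearer interval bound and listed zeros taken as 0. The lower count was 0 with a floor of 10 CPM and 4 at 1.5-fold, and the higher count was 0 at 4-fold. Both counts were 0 without genes that overlap or share words, which leaves 14 members. They were also 0 when genes were summed with their copies, where Rps18 had a log2 ratio of 0.0899. Copies held 99.02% of the summed Rps18 reads in BPA and 94.6% in control. For Rpl10a they held 65.9% in BPA and 85.8% in control. These 2 sums mostly follow the ratio of the copies, so they do not check the calls of the gene rows. Copies, listed zeros and principal transcript lengths were alternatives chosen after seeing the data. Over all genes, 256 were higher and 379 lower in BPA. These counts were 82 and 123 with a pseudocount of 1 CPM, 80 and 103 when the floor was 4 CPM, 45 and 50 when it was 10 CPM, 1900 and 2542 with no floor, 828 and 1042 at 1.5-fold, 55 and 85 at 4-fold, 100 and 162 on the nearer bound, and 686 and 937 with listed zeros as 0. Without genes found to overlap or share words, 162 of 12491 genes were higher and 278 were lower. That set keeps genes without a GENCODE match, unlike the 9870 annotated genes used above. Scaling moved log2 ratios by at most 0.004 and turned none of 23 named members. With the longest transcript, as with CPM alone, 3 pairs had the paralog above its parent in both libraries, against 4 with the union of exons. No paired analysis was possible because each group has 1 library, and no library could be left out. Depth limits the low genes most, since Rpl29 rests on 81 reads in BPA and 71 in control. The cause of these changes was not tested beyond what each setting itself removes.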
